A study of Mus musculus with 30 samples.

Results

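The genes of CTCF and of the cohesin machinery were examined as places on the genome where CTCF, cohesin and chromatin remodelers bind. The 10 genes were Ctcf, the cohesin ring genes Smc1a, Smc3 and Rad21, the accessory subunit genes Stag1 and Stag2, the loader gene Nipbl, the release factor gene Wapl, and Pds5a and Pds5b. A locus was the gene body in the GENCODE M21 annotation (mouse build GRCm38) with 10 kb to either side. The 10 loci were chosen out of 21938 protein-coding genes by name, with earlier results of these data known. They held 932 of the 1428772 peaks of all 20 lists. The study mapped protein binding by chromatin immunoprecipitation and sequencing in E14 mouse embryonic stem cells. The genotype of all these cells is CTCF AID, in which an auxin-inducible degron is fused to CTCF so that the auxin IAA triggers destruction of the protein. Cells were compared at 0 h, without IAA, and after 12 h of IAA, so the untreated cells carry the tagged CTCF too. CTCF and SMC1A had 1 library per time. CHD4, CHD8, SMARCA4 and SMARCA5 were each mapped through a biotin tag, in CTCF AID cells that also carry biotin-CHD4, biotin-CHD8, biotin-SMARCA4 or biotin-SMARCA5, with 2 libraries per time, which makes 16 remodeler libraries. The labels do not say whether the 2 libraries came from separate cultures or how many clones were used, so the spread between them may be technical.

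CTCF binds a long DNA motif through its zinc fingers. Cohesin is a ring made of SMC1A, SMC3 and RAD21 with STAG1 or STAG2, which extrudes chromatin into loops and is halted at bound CTCF. NIPBL loads cohesin and drives its movement, WAPL takes it off DNA, and PDS5A and PDS5B bind the ring and take part in both its release and its protection. The 4 mapped remodelers use ATP to slide or evict nucleosomes. CHD4 belongs to the NuRD complex, SMARCA4 to BAF and SMARCA5 to ISWI complexes, and CHD8 is a chromodomain protein known to interact with CTCF.

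The CTCF sites of these loci are shown first by their sequence, and were chosen to set sites at promoters or a transcript start beside weak sites in introns. The search word was the fixed part of the CTCF motif, CCNNNAGNNGGC, read on both strands within 100 bp of the CTCF summit. A match is a description of the letters and not a binding measurement. Below, each sequence is read 5′ to 3′ on the strand that carries the match, from GRCm38, and capitals mark every match within the printed bases. The distance after the gene name runs from the annotated 5′ end of the gene to the CTCF summit, with a minus sign for upstream.
Stag1 at +45771 bp, chr9:100643564-100643593, + strand: gcagcgcggCCAGCAGAGGGCggtcgggac
Pds5b at −35 bp, chr5:150673669-150673728, + strand: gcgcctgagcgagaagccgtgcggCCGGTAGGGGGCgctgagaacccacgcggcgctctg
Stag2 at −71 bp, chrX:42149248-42149307, + strand: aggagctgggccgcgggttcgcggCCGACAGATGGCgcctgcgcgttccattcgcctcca
Smc3 at −497 bp, chr19:53599867-53599926, + strand: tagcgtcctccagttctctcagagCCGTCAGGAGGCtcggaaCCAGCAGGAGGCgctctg
Ctcf at +273 bp, chr8:105636731-105636790, − strand: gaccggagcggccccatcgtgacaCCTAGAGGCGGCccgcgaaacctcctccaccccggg
Stag1 at +312770 bp, chr9:100910521-100910580, − strand: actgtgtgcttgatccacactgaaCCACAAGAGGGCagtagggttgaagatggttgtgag
Pds5b at +29138 bp, chr5:150702867-150702926, − strand: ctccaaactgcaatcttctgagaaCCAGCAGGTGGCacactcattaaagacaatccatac

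The first 5 sites lie at promoters or a transcript start, and the last 2 are weak sites in introns. The word was present at 8 of the 19 CTCF sites of the loci (42.1%, exact Clopper-Pearson 95% interval 20.3% to 66.5%), which are the 7 above and an intronic Smc3 site at +37854 bp. It was present at 57.0% of all 29934 CTCF sites of the 0 h list, at 7.13% of windows of the same length at coding start sites, and at 3.31% of CTCF sites shifted by 100 kb. With A required also at position 3 of the word, 5 of the 19 sites matched (26.3%) against 46.2% of all sites. The windows of the Smc3 promoter and of the Stag1 site at +45771 bp each hold the word in 2 places, and the second place at Stag1, 68 bp from the summit, lies outside the printed bases. At Smc3, 1 of the 2 has that A. The matches at the Pds5b, Stag2 and Ctcf promoters lacked it. At Pds5b, Stag2, Smc3 and the Stag1 site at +45771 bp the printed matches run along the gene's own strand, while at the Ctcf promoter it runs against it and lies 80 bp from the summit. The proximal promoter of Pds5b, 162 bases up to the annotated gene start (RefSeq promoter table, chr5:150673577-150673738, + strand), shows how close this match sits to the start.
Pds5b promoter: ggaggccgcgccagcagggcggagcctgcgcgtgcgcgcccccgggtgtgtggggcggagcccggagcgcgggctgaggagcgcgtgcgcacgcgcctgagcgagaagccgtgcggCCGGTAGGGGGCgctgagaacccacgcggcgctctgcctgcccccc
It is 80.2% G and C. The table held 7 of the 10 genes.

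The 10 loci held 19 CTCF peaks at 0 h, and only 1 of these had a CTCF peak at 12 h. A peak's fold enrichment is the authors' ratio to local background, and its percentile is the share of peaks in the same list with a lower −log10 p. Pds5b held 4 CTCF peaks, Ctcf, Smc3 and Stag1 held 3 each, Nipbl and Pds5a held 2 each, and Stag2 and Wapl held 1 each. Rad21 (chr15:51962240-51991747) and Smc1a (chrX:152016428-152062694), which encode parts of the ring, held none. Loci without a CTCF peak made up 40.1% of all coding loci and 26.0% of those whose gene body is as long as in this set. By place, 9 of the 19 summits lay in a gene body, 7 upstream and 3 downstream. The 19 peaks spread over the whole range of the list, from percentile 1.06 to 99.2 with a median of 49.2, and 4 of them (21.1%) were in the weakest 10% of the list.

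**Figure D1:**
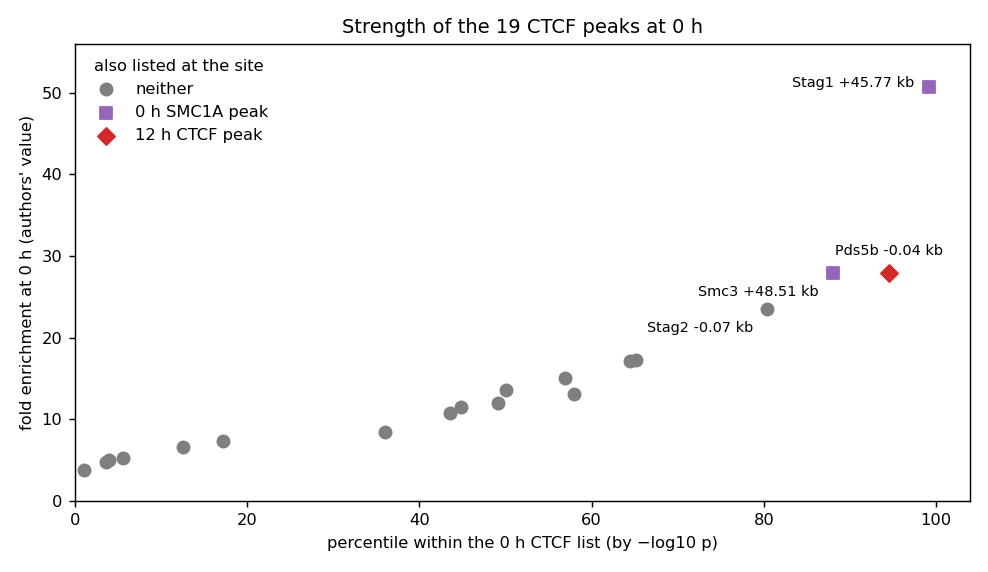
Fold enrichment at 0 h (vertical axis, the authors' ratio) against the percentile within the 0 h CTCF list (horizontal axis) for the 19 CTCF peaks of the 10 loci. Purple squares also had a SMC1A peak at 0 h, the red diamond also had a CTCF peak at 12 h, and the strongest peak, at Stag1, had a SMC1A peak and no 12 h CTCF peak.

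The site that was still listed at 12 h was the Pds5b promoter (gene body chr5:150673739-150810690). Its 0 h peak, chr5:150673514-150673931, had a fold enrichment of 27.9 and ranked 1632 of 29934, at percentile 94.5. Its 12 h peak had a fold enrichment of 14.4 and ranked 238 of 2248, at percentile 89.5. The share kept in the loci, 1 of 19 (5.26%, exact interval 0.133% to 26.0%), stood beside 7.44% of all CTCF peaks, and with so few sites no difference from the list as a whole was detectable. Of all CTCF sites within 1 kb of a coding start, 14.0% were kept, and of the 7 such sites of the loci 1 was kept (14.3%).

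The strongest CTCF site of the set, in Stag1, was not listed at 12 h. This peak, chr9:100643259-100643833, had a fold enrichment of 50.7 and ranked 248 of 29934, at percentile 99.2. The Stag1 gene record (chr9:100597798-100959375) begins far upstream of it. Both Stag1 transcripts of the GENCODE basic set, the reduced set of representative transcripts, begin at +45650 and +45815 bp, and the summit lies in an untranslated region 44 bp from the nearer of these starts. The other 2 Stag1 sites, at +312770 and +319522 bp, lie in introns and were weak, with fold enrichments of 7.36 and 5.29 at percentiles 17.2 and 5.55.

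Of the 10 promoters, taken as 1 kb to either side of the annotated 5′ end of the gene, 6 had a 0 h CTCF peak: Ctcf, Smc3, Stag2, Nipbl, Pds5a and Pds5b. The share over all coding promoters was 13.7%. The Stag2 promoter peak (summit at −71 bp, in an intron of the overlapping gene Gm37564) had a fold enrichment of 23.6 at percentile 80.4. The peak at Pds5a (summit at −56 bp) had 15.0 at percentile 56.9, and the peak at Smc3 (−497 bp) had 13.0 at percentile 58.0. The peak at Nipbl (summit at −1008 bp, reaching into the promoter window) had 12.0 at percentile 49.2, and that at the Ctcf promoter itself (+273 bp, in an intron of Ctcf and of the overlapping Agrp and Gm5914) had 11.5 at percentile 44.8. Apart from Pds5b and Stag2, these promoter peaks were therefore of middling rank in the list. Of the 6 promoters only Pds5b had a 12 h CTCF peak, against 13.4% of all coding promoters with a 0 h CTCF peak. Over the 10 promoters that is 1, against 1.83% of all coding promoters.

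Inside the gene bodies, CTCF peaks away from promoters were mostly weak. In Ctcf (chr8:105636568-105682922) an intronic site at +24779 bp had a fold enrichment of 8.49 at percentile 36.0. In Smc3 (chr19:53600398-53645833) an intronic site at +37854 bp had 4.96 at percentile 3.98. In Pds5b the intronic sites at +29138 and +44236 bp had 3.79 and 6.63, at percentiles 1.06 and 12.5. A second Pds5a site at +1347 bp, in an untranslated region, had 10.8 at percentile 43.6. The remaining 5 sites lay outside the gene bodies and more than 1 kb from the start of a gene of the set. They were a site 376 bp from the start of the neighbour Carmil2 (+49330 bp from the Ctcf start, fold 17.2), a site beyond the 3′ end of Smc3 (+48514 bp, fold 27.9, percentile 88.1), a site at −6772 bp from Nipbl (fold 13.6), a site beyond Wapl (+79144 bp, fold 4.78) and a site 256 bp from the start of N4bp2l2 (−7871 bp from Pds5b, fold 17.3). None of these was listed at 12 h.

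Cohesin was sparse at these loci. SMC1A, the ring subunit that was mapped, had 2 peaks in the 10 loci at 0 h, and both lay on CTCF sites. One was at the Stag1 site at +45771 bp (chr9:100643224-100643781, SMC1A fold enrichment 12.6, percentile 97.3). The other lay beyond the 3′ end of Smc3 (chr19:53648384-53649488, fold enrichment 8.61, percentile 81.8), on the CTCF site at +48514 bp. Thus 2 of the 19 CTCF sites carried SMC1A (10.5%, exact interval 1.3% to 33.1%), against 45.8% of all CTCF sites. At 8 of the 10 loci no SMC1A peak was listed, against 56.6% of all coding loci and 43.5% of those with gene bodies of like length.

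The CTCF sites of the loci were not all weak, so the share was also read by strength. Among CTCF sites in the upper 50% of the list, 2 of 9 in the loci and 65.8% of all had a SMC1A peak. In the lower 50% the values were 0 of 10 in the loci and 25.7% overall. Among sites within 1 kb of a coding start they were 0 of 7 and 43.3%, and of the 6 promoters with a CTCF peak none had SMC1A, against 46.1% of all such promoters. With every annotated transcript start counted, 1 promoter, that of Stag1 with its start at +45650 bp, had SMC1A. Of all coding promoters 11.1% had a SMC1A peak. The exact intervals for 2 of 9 (2.81% to 60.0%), 0 of 10 (up to 30.8%) and 0 of 7 (up to 41.0%) cover counting error over sites only. SMC1A peaks had a density of 0.152 per 100 kb in the 10 loci and 0.911 per 100 kb over all coding loci, while CTCF peaks had 1.45 and 1.69. With 1 SMC1A library there is no replicate check on this. At 12 h the whole SMC1A list held 10 peaks and none lay in the 10 loci.

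The remodelers, in contrast, were listed at nearly every promoter of the set at both times. At 8 of the 10 promoters (Ctcf, Smc3, Rad21, Stag1, Nipbl, Wapl, Pds5a and Pds5b) all 16 remodeler libraries had a peak, against 31.0% of all coding promoters. Stag2 had a peak in 14 libraries and Smc1a in 11. These are the 2 genes of the set on the X chromosome, where promoters had fewer peaks in general: SMARCA5 occupied 7.17% to 19.0% of 948 X promoters and 43.9% to 53.9% of all coding promoters, depending on the library. CHD4 occupied 26.2% to 36.2% of X promoters and 58.0% to 63.4% of all. Whether the place on the X bears on Stag2 and Smc1a was not tested.

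**Figure D2:**
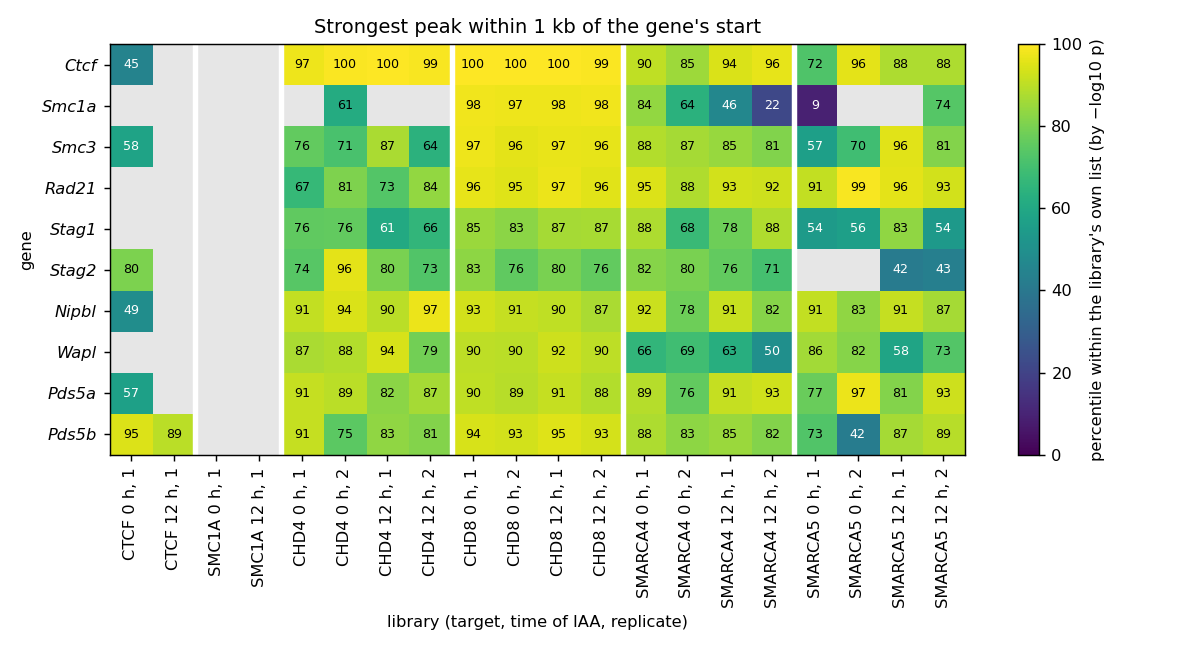
Percentile of the strongest peak within 1 kb of the annotated 5′ end of each gene (rows), within the list of each of the 20 libraries (columns, grouped by target and time). Grey cells have no listed peak, which covers all SMC1A cells, 9 of 10 CTCF cells at 12 h, CTCF at 0 h at Smc1a, Rad21, Stag1 and Wapl, and gaps of CHD4 and SMARCA5 at Smc1a and of SMARCA5 at Stag2. Colours rank a peak within its own list, and ranks from lists of different lengths do not show a change.

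The CHD8 peak at the Ctcf promoter had the highest fold enrichment of the CHD8 peaks at the 10 promoters in 3 of the 4 CHD8 libraries. In replicate 2 of 12 h Smc1a had 34.8 against 34.0 at Ctcf. Fold enrichments depend on the depth and background of each library, so values of different libraries are given side by side and no change is read from them alone. The 0 h peaks had fold enrichments of 95.6 and 63.2, and the 12 h peaks had 70.0 and 34.0. They ranked 39 of 13457 and 73 of 12739 occupied promoters at 0 h, and 126 of 13245 and 273 of 12422 at 12 h. The fold enrichments of the 2 times overlap, while both 0 h peaks ranked above both 12 h peaks. The share of occupied promoters with a weaker CHD8 peak was 99.7% and 99.4% at 0 h and 99.0% and 97.8% at 12 h. This order of ranks was not tested. CHD8 summits lay within 80 bp of the annotated start in all 4 libraries, at +68, +80, +78 and +45 bp.

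CHD4 was high at the Ctcf promoter as well. Its fold enrichments were 6.96 and 9.59 at 0 h and 18.0 and 9.66 at 12 h, with ranks of 754 and 336 at 0 h and 25 and 367 at 12 h among 12728 to 13899 occupied promoters. CHD4 summits lay upstream, from −252 to −336 bp. SMARCA4 had fold enrichments of 5.50 and 5.35 at 0 h and 7.66 and 7.96 at 12 h, and SMARCA5 had 4.20 and 5.18 at 0 h and 4.52 and 3.66 at 12 h. Both 12 h fold enrichments were above both 0 h ones in CHD4, there by a margin of 9.66 against 9.59, and in SMARCA4. The CHD4 ranks of the 2 times overlap, as do the SMARCA5 fold enrichments. With 2 libraries against 2, no exact permutation p below 0.333 can be had within 1 remodeler.

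The promoters most like that of Ctcf over the 19 lists with more than 100 peaks were those of Agrp, Trip10 and Tcf25. Their percentiles differed from those of Ctcf by 2.45, 3.80 and 4.13 on average, against a median of 41.1 over all genes. Agrp lies next to Ctcf and its promoter window shares sequence with the Ctcf window, so its likeness rests on the same peaks.

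Among the ring genes, Smc1a stood out by gaps. CHD8 was listed at the Smc1a promoter in 4 of 4 libraries with fold enrichments of 45.3 and 36.5 at 0 h and 40.3 and 34.8 at 12 h, at percentiles of 97.5 to 97.9. SMARCA4 was listed in 4 of 4 libraries, with 7.75 and 5.42 at 0 h and 3.69 and 3.00 at 12 h. CHD4 was listed only in replicate 2 of 0 h (fold 5.11), and SMARCA5 only in replicate 1 of 0 h (3.15) and replicate 2 of 12 h (4.35). Both 12 h SMARCA4 values were below both 0 h values, which was not particular to Smc1a. The same order was seen at Smc3, Stag2, Wapl and Pds5b. It was reversed at Ctcf, and the values of the times overlapped at Rad21, Stag1, Nipbl and Pds5a. The share of all coding promoters with either order was not counted, so no trait of the set is read from it. Smc1a was thus a promoter with CHD8 and SMARCA4 at both times, with CHD4 in 1 of 4 libraries and SMARCA5 in 2 of 4.

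Smc3 and Rad21 had all 4 remodelers in every library. At Smc3 CHD8 had fold enrichments of 32.6 and 23.1 at 0 h and 26.5 and 18.7 at 12 h, and at Rad21 27.5 and 20.6 at 0 h and 28.8 and 18.1 at 12 h. The values of the times overlap for both genes, and the CHD8 peaks sat at percentiles of 95.2 to 97.3. At Rad21, which has no CTCF peak in its locus, SMARCA5 reached percentiles of 90.6 and 99.1 at 0 h and 95.8 and 93.1 at 12 h. Of the 4 promoters without a CTCF peak, Rad21, Stag1 and Wapl thus had remodeler peaks in 16 of 16 libraries and Smc1a in 11.

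The accessory subunit genes differed from each other. At the annotated 5′ end of Stag1, where no basic transcript starts, all 16 remodeler libraries had a peak, with CHD8 fold enrichments of 9.14, 8.65, 11.6 and 9.95 (0 h, 0 h, 12 h, 12 h). At the first basic transcript start of Stag1, at +45650 bp, all 16 also had a peak, and CHD8 there had 33.1, 22.6, 27.8 and 16.7 in the same order. The strongest SMARCA4 peak at that start was broad and mostly centred upstream. Its summit lay at −433 and −2195 bp from that start at 0 h and at −2120 and −2278 bp at 12 h. The start that carries the strong CTCF site and SMC1A thus also carried the stronger CHD8 peak in each of the 4 libraries.

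Stag2 (chrX:42149317-42277185) was the only promoter of the set gained or lost by a remodeler, where gained means a peak in both 12 h libraries and in neither 0 h library, and lost the reverse. SMARCA5 was gained there, with fold enrichments of 3.80 and 3.76 at 12 h, at percentiles of 41.7 and 43.3. SMARCA5 gained 1.58% and lost 0.675% of all coding promoters. The other remodelers gained and lost no promoter of the set, and over all coding promoters CHD4 gained 0.397% and lost 1.24%, CHD8 gained 0.255% and lost 0.82%, and SMARCA4 gained 1.09% and lost 0.456%. The strongest SMARCA5 peak in the window had its summit at −958 bp in replicate 1 and at +507 bp in replicate 2. The region formed by joining overlapping remodeler peaks around the start, chrX:42148611-42151315, held SMARCA5 peaks in both 12 h libraries. Whether the 2 libraries mark the same point is therefore not settled by these summits. The gain was not called when peaks needed a −log10 q of at least 5. The other remodelers were listed at Stag2 in all libraries, CHD8 with fold enrichments of 14.8 and 8.11 at 0 h and 8.57 and 6.74 at 12 h.

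Nipbl, Wapl, Pds5a and Pds5b had all 4 remodelers in every library. At Nipbl (chr15:8290617-8444463) CHD8 had fold enrichments of 29.4 and 21.2 at 0 h and 16.7 and 10.8 at 12 h, and CHD4 had 8.28, 9.05, 8.80 and 9.60. Both 12 h CHD8 values at Nipbl were below both 0 h values, and the share of all coding promoters with this order was not counted. At Wapl (chr14:34673928-34747983) SMARCA4 had fold enrichments of 3.88 and 4.32 at 0 h and 3.46 and 3.00 at 12 h, at percentiles of 49.8 to 69.3. At Pds5a (chr5:65605721-65698273) CHD8 had 13.9 and 9.60 at 0 h and 13.7 and 9.63 at 12 h, with no difference between times beyond the spread. At Pds5b CHD8 had 20.8 and 16.9 at 0 h and 24.9 and 16.8 at 12 h, and its summits fell between −64 and +5 bp, around the CTCF summit at −35 bp.

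Promoter by promoter, the test between times called nothing. It was an exact stratified permutation test on presence of a peak, with the labels of 0 h and 12 h exchanged in every way within each remodeler and Benjamini-Hochberg adjustment over all 21938 coding promoters. No promoter had an adjusted p under 0.05 (0.0% in either direction), and 14 promoters with fewer libraries at 12 h (0.0638%) and 8 with more (0.0365%) had an unadjusted p under 0.05, none of them in this set. Stag2 went from 6 to 8 libraries (exact permutation p 0.333, adjusted 1.0) and Smc1a from 6 to 5 (1.0, adjusted 1.0). At the other 8 promoters the number of libraries did not move from 8. The smallest p this test can give is 0.00154, and at least 678 promoters would have to reach it before any could pass, so the test has little power for a single gene.

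The remodelers were then read at the 19 CTCF sites. CHD4 was listed at 12 and 11 of the 19 sites in the 0 h libraries and at 9 and 3 in the 12 h libraries. CHD8 was listed at 11 and 10, then at 9 and 7. SMARCA4 was listed at 11 and 11, then 10 and 10, and SMARCA5 at 7 and 7, then 6 and 6. For every remodeler the 12 h libraries thus had fewer of the sites than the 0 h libraries, in SMARCA4 and SMARCA5 by 1 site.

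**Figure D3:**
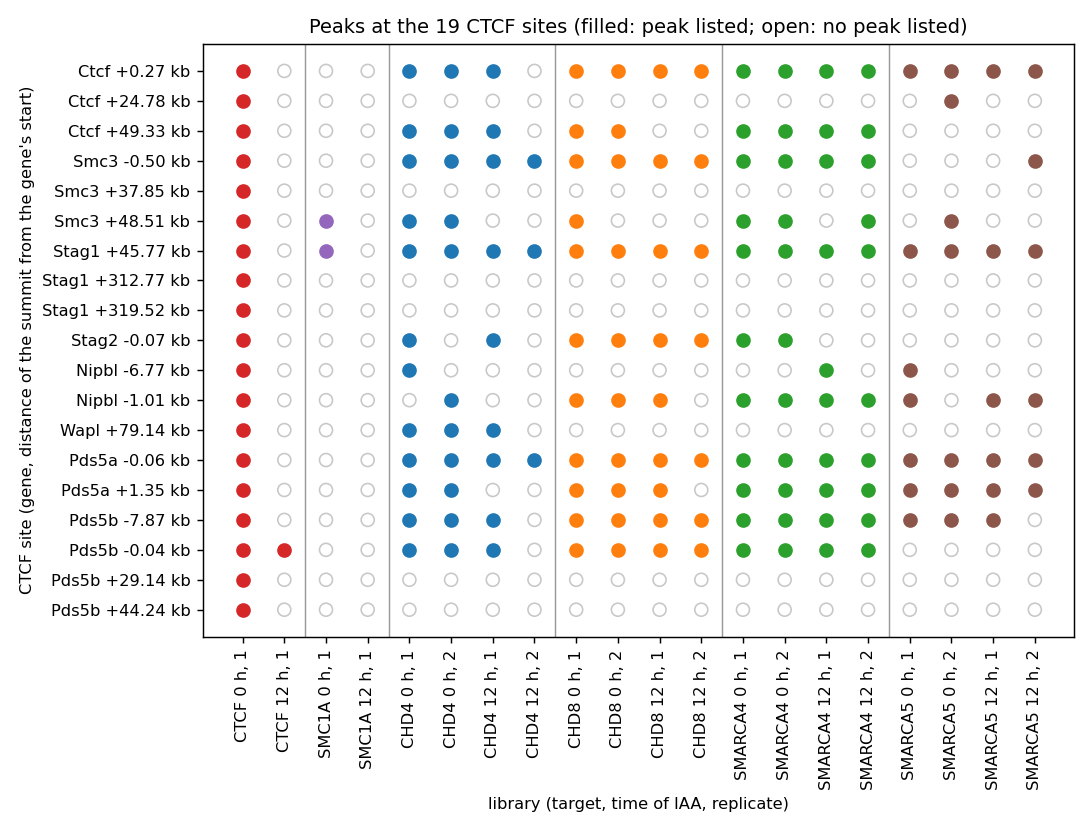
Presence (filled) or absence (open) of a listed peak at the 19 CTCF sites (rows, named by gene and distance from its start in kb) in the 20 libraries (columns). Only the Pds5b promoter site is filled for CTCF at 12 h, only a Smc3 and a Stag1 site for SMC1A, and 5 intronic sites of Smc3, Stag1 and Pds5b have no remodeler peak at either time.

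As a share of the 19 sites, CHD4 went from 60.5% ± 3.75 (SD, n = 2) to 31.6% ± 22.3 (SD, n = 2) and CHD8 from 55.2% ± 3.75 (SD, n = 2) to 42.1% ± 7.50 (SD, n = 2). SMARCA4 went from 57.9% to 52.6% and SMARCA5 from 36.8% to 31.6%, with an SD of 0 in each group. The same shares over all CTCF sites were 41.2% and 18.4% for CHD4, 23.9% and 14.6% for CHD8, 26.5% and 23.1% for SMARCA4, and 17.1% and 12.1% for SMARCA5. The CHD4 change of −28.9 points rested largely on replicate 2 of 12 h. It was −13.2 points without that library and −44.7 without replicate 1 of 12 h. From 0 h to 12 h, the CHD4 lists of replicate 1 went from 12 to 9 sites and those of replicate 2 from 11 to 3. Both replicate 2 lists held narrow peaks, with a median width of 119 bp at 0 h and 94 bp at 12 h. Whether peak width bears on the change was not tested. The CHD8 change of −13.2 points was −7.89 without replicate 2 of 12 h. When a site counted only if it held the summit of a remodeler peak, the SMARCA4 change turned to 10.5 points and those of CHD8 and SMARCA5 became 0.0, while that of CHD4 was −13.2 points.

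**Figure D4:**
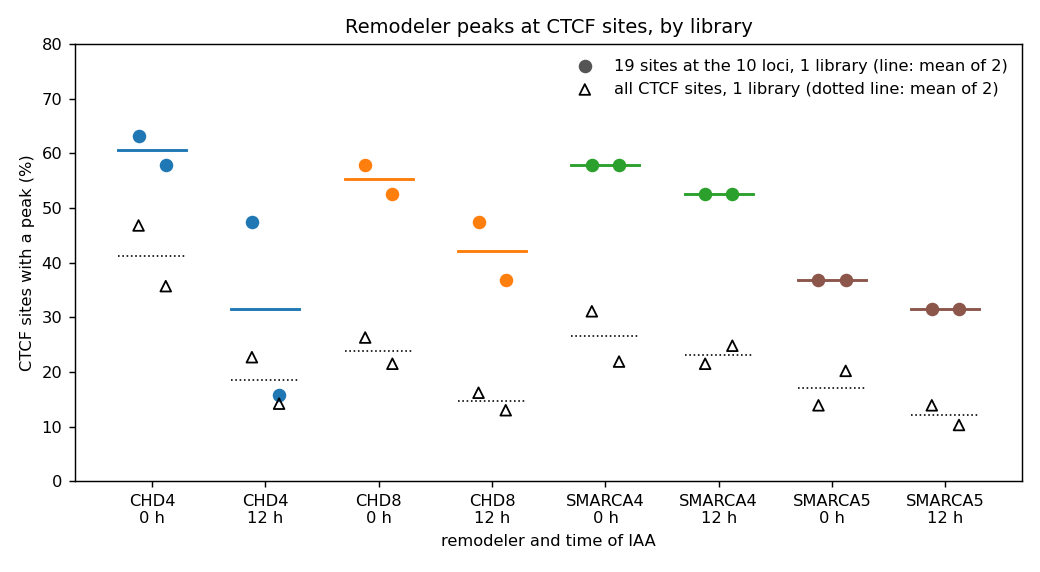
Percentage of CTCF sites with a listed peak in each remodeler library, for the 19 sites of the 10 loci (filled circles, line at the mean of 2 libraries) and for all 29934 CTCF sites (open triangles, dotted line at the mean). The circles at 12 h lie below those at 0 h in each remodeler, by 1 site in SMARCA4 and SMARCA5, and the 2 CHD4 circles at 12 h are far apart, at 47.4% and 15.8%.

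The sites of the loci lie nearer to promoters than the list as a whole: 7 of the 19 (36.8%) and 8.71% of all CTCF sites are within 1 kb of a coding start. Among such sites, 0 h CHD8 was listed at 7 of 7 in the loci in both libraries and at 85.9% and 81.2% over all. SMARCA5 was listed at 42.9% of the 7 in every library and at 39.5% to 56.8% of all such sites. Of the 12 other sites, SMARCA4 was listed at 4 in each of its libraries and CHD4 at 5 and 5 at 0 h, then 2 and 1 at 12 h. Over all sites beyond 1 kb, SMARCA4 was listed at 16.5% to 26.1% and CHD4 at 43.0% and 31.8%, then 17.4% and 10.2%. Distances here run to the 5′ ends of gene records, so the 12 sites are not all far from a transcript start. The Stag1 site at +45771 bp and the Pds5a site at +1347 bp lie 44 and 930 bp from a basic start. These and the Nipbl site at −1008 bp had SMARCA4 in every library.

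Site by site, 11 of the 19 had fewer remodeler libraries at 12 h than at 0 h, 1 had more, 2 were equal and 5 had none at either time (57.9%, 5.26%, 10.5% and 26.3%). Over all CTCF sites these shares were 46.0%, 6.47%, 8.83% and 38.7%. The 2 equal sites had a peak in all 16 libraries. They were the Stag1 site at +45771 bp, where SMARCA4 was listed through the broad peaks described above, and the Pds5a promoter site at −56 bp. The 1 site with more libraries at 12 h was the Smc3 promoter site, which went from 6 to 7 of 8 through SMARCA5. The 5 sites with none were all intronic, at Smc3 (+37854 bp), Stag1 (+312770 and +319522 bp) and Pds5b (+29138 and +44236 bp). Their CTCF peaks were weak, with fold enrichments of 3.79 to 7.36, and 3 of these 5 held the motif word with A at position 3.

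The site with the largest difference in the number of libraries was the one beyond the 3′ end of Smc3 at +48514 bp, one of the 2 with SMC1A. Within 100 bp of its summit it had a remodeler peak in 6 of 8 libraries at 0 h and in 1 of 8 at 12 h, that of SMARCA4 replicate 2. CHD4 was lost there, in both 0 h and neither 12 h library. Its exact permutation p was 0.0417, and 1.0 after adjustment over the 29934 CTCF sites. In all, 512 CTCF sites with fewer libraries at 12 h (1.71%) and 3 with more (0.01%) had an unadjusted p under 0.05, and none passed after adjustment (0.0%). At least 924 sites would have to reach the smallest p of 0.00154 before one could pass. With labels exchanged only between libraries of the same replicate number, the p at this site was 0.0625. The mean share of libraries with a peak there differed by −0.625 between 12 h and 0 h, by −0.25 when a summit was required at the site (exact permutation p 0.5) and by −0.25 at a −log10 q of at least 5 (exact permutation p 0.583).

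The rule of both libraries against neither was met at 4 of the 19 sites. CHD4 was lost at the Smc3 site at +48514 bp and at the Pds5a site at +1347 bp, which makes 10.5% of the 19 sites against 12.0% of all. CHD8 was lost at the site next to Carmil2 downstream of Ctcf, 1 of 19 (5.26%) against 4.52% of all. SMARCA4 was lost at the Stag2 promoter site at −71 bp, 1 of 19 against 2.21% of all, and SMARCA5 at none, against 2.38%. No remodeler gained a site, against gains of 0.13% for CHD4, 0.2% for CHD8, 1.02% for SMARCA4 and 0.658% for SMARCA5 over all sites. These shares are near the background of each remodeler, and they were 2 lost sites at a −log10 q of at least 5 and 0 lost and 1 gained with summits. The SMARCA4 loss at Stag2 was one of a peak's edge: a peak upstream of the start was listed in all 4 libraries, with fold enrichments of 4.38 and 4.34 at 0 h and 4.41 and 3.47 at 12 h. Its end lay −56 and +1 bp from the CTCF summit at 0 h and −160 and −173 bp from it at 12 h, outside the window of 100 bp. The other losses were also read in wider regions, made by joining overlapping remodeler peaks of all 16 libraries. The region around the Pds5a site still held CHD4 peaks in both 12 h libraries. That around the site next to Carmil2 still held CHD8 peaks in both. The region at the Smc3 site, chr19:53648790-53651048, held a CHD4 peak in neither 12 h library. A separate CHD4 peak of 1 library at 12 h lay nearby, at chr19:53648308-53648362. The region still held SMARCA4 peaks in both 12 h libraries and a SMARCA5 peak in 1. Counted over the remodelers, it had peaks in 7 of 8 libraries at 0 h and 3 of 8 at 12 h.

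Outside the 1 kb windows at the annotated 5′ ends of the 10 genes, the remodeler peaks of the loci merged into 148 regions, besides 11 inside them, and 73 of the 148 came from 1 library only. Of the 148, 11 were shared by at least 12 of the 16 libraries, and 3 of these lay at a CTCF site. These 3 lie within 1 kb of another transcript start, that of Carmil2, of N4bp2l2 and the later start of Stag1. In all 16 libraries were a region at +8635 bp in the Stag1 gene record and the one around its CTCF site at +45771 bp. So were a region at −9985 bp from Rad21 and one at −10761 bp from Wapl. The region at +8635 bp in Stag1 lies within 1 kb of a transcript start of Gm47803, and that near Wapl within 1 kb of one of Gm49024. In total 5 of the 11 lie within 1 kb of a basic transcript start, and 15 of the 148. The loci without CTCF peaks thus differed: Rad21 had 15 remodeler regions outside the window at its 5′ end and Smc1a had none. Remodeler peak density in the loci relative to all coding loci ranged over libraries from 0.631 for CHD8 to 1.20 for SMARCA5.

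The other genes of the pathway were read from a fixed list of 30: regulators and meiotic subunits of cohesin, condensin and SMC5/6 genes, and DNA-binding proteins that share sites with CTCF. Of these, 16 had a promoter peak in all 16 remodeler libraries, against 31.0% of all coding promoters, and 1, the meiotic kleisin gene Rad21l, had none. Only Esco1, which encodes an acetyltransferase that acts on SMC3, had a 0 h CTCF peak within 1 kb of its start, and it had remodeler peaks in all 16 libraries. The list held 1 SMC1A peak. No promoter of the list passed the test between times at an adjusted or an unadjusted p under 0.05 (exact permutation test). The rule of both libraries against neither gave 1 loss and 2 gains over the 4 remodelers. Over all coding promoters, each remodeler lost 0.456% to 1.24% and gained 0.255% to 1.58%. The 6 of 10 promoters with CTCF in the set thus stood beside 1 of 30 in this list and 13.7% of all coding promoters. The set and the list were both chosen with earlier results of these data known, and the difference was not tested.

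As a check of the cell type, 6 of 8 stem cell marker promoters had peaks in all 16 remodeler libraries and none of 6 fibroblast markers did. Col3a1, Postn and Lum were listed in none. The fibroblast markers Col1a1, Col1a2 and Thy1 had peaks in 7, 4 and 4 of 8 libraries at 0 h and in 4, 4 and 3 at 12 h. The stem cell marker Esrrb had fewer, in 2 of 8 at 0 h and 3 at 12 h. A remodeler peak is not expression, so this is a weak check. The remodeler lists held 40880 to 187294 peaks, the CTCF lists 29934 and 2248, and the SMC1A lists 16724 and 10. They carry no read counts, so sequencing depth is unknown, and a site without a listed peak may hold signal under the authors' threshold. At 12 h, less binding and a shorter list cannot be told apart for CTCF and SMC1A.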

How the data were processed

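Binding was measured by ChIP-seq. 20 deposited peak lists, 1 per sample, were analysed, and 10 input samples were not analysed here. Per the submitters' processing notes, Trim Galore, Bowtie2, MACS2 and deepTools and the builds mm10 and hg38 were used, with no version or role. The lists' layout gives the authors' fold enrichment (a ratio), −log10 p and −log10 q, a score and the summit offset of each peak as the authors deposited them. Control and threshold are not given in the sources used here. All peaks fit the GRCm38 chromosome lengths. Sequences are from the RefSeq copy of GRCm38.

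Samples were grouped by target and treatment in the labels. A peak occupied a window by an overlap of at least 1 bp: 100 bp around 0 h CTCF summits, or 1 kb around the 5′ end of a gene. Where a library had several peaks in a window, the one with the highest −log10 p is given. Tests were exact stratified permutation tests over libraries (Python 3.11.15, numpy 2.4.6, scipy 1.17.1), tested on simulated data. Intervals are exact 95% binomial ones. Presence of peaks gave little sign of pairing by replicate number (correlations of replicate differences from −0.152 to 0.226). This cannot show that the samples were unpaired. CHD4 lists of the same number had like median peak widths, 433 and 475 bp in replicate 1 and 119 and 94 bp in replicate 2. The main test took the libraries as unpaired, with the replicate block as an alternative. All 10 genes and all 19 CTCF sites are reported. Of the 30 pathway genes, those with a CTCF peak or no remodeler peak are named, with the 3 promoters most like that of Ctcf. Members and lists were chosen with earlier results of these data known. Alternatives were a −log10 q of at least 5, other windows and overlap rules, equal list lengths, a replicate block, and fits without each library in turn.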

Additional observations from a re-analysis of the deposited data

How the results depend on the processing

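No CTCF site and no promoter passed the test at an adjusted p under 0.05 in any setting, with 0 calls under a −log10 q of at least 5, summits, a 500 bp promoter window, the replicate block and each left-out library. The replicate block, which exchanges labels between libraries of the same number, gave 0 calls. It lowered the number at an unadjusted p under 0.05 from 515 to 167 CTCF sites and from 22 to 9 promoters. The block allows fewer relabellings than the main test, so its smallest possible p is larger. Its 0 calls and lower numbers therefore say little about the features. Crossing the SMARCA4 numbers, an alternative chosen after seeing the data, also gave 9 promoters. Leaving out 1 library gave 471 to 780 sites and 25 to 38 promoters at that level, summits gave 62 sites and a −log10 q of at least 5 gave 176. Leaving out 1 library moved the change at the 19 CTCF sites from −44.7 to −13.2 points in CHD4 and from −18.4 to −7.89 in CHD8, and not from −5.26 in SMARCA4 and SMARCA5. Within lists whose peak names share a style, also chosen after seeing the data, it was −44.7 in CHD4 and −5.26 in SMARCA4 and SMARCA5. With a −log10 q of at least 5 the change was 0.0 in SMARCA4 and SMARCA5. With summits it was 0.0 in CHD8 and SMARCA5 and 10.5 in SMARCA4, a reversal. Of the CTCF sites in gene bodies 0.0% were kept at 12 h. Counting any transcript start, 1 promoter, that of Stag1, had SMC1A at 0 h. Lost CTCF sites numbered 2 with a −log10 q of at least 5 and 0 with summits, where 1 was gained, and the Stag2 promoter gain was gone (0) at a −log10 q of at least 5. Without the 10 kb margins, peak density relative to all coding loci was 0.109 for SMC1A at 0 h, 0.592 and 0.576 for CHD4 (0 h and 12 h), 0.411 and 0.547 for CHD8, 0.705 and 0.655 for SMARCA4, and 0.829 and 0.799 for SMARCA5. With a −log10 q of at least 5 it was 0.706 and 0.741 for CHD8 and 1.64 and 1.12 for SMARCA5. The causes of these shifts were not tested. Unknown depth limits every absence of a peak.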
